A study of Homo sapiens with 6 samples.

Results

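The genes described here are the metalloproteases of the MMP, ADAM and ADAMTS families and their TIMP inhibitors, taken as every gene whose symbol is MMP, ADAM or ADAMTS followed only by digits, or TIMP1 to TIMP4. The rule found 65 of the 19395 genes in the count table: 22 MMP, 20 ADAM, 19 ADAMTS and 4 TIMP genes. It used gene names and no measured value. Polyadenylated RNA had been sequenced from 6 libraries labelled as DLD-1, an established human colorectal adenocarcinoma line, to ask what TNFRSF12A overexpression does to the transcriptome. The 3 libraries labelled oeTNFRSF12A came from cells with the genotype TNFRSF12A overexpression that had received doxycycline, the inducer, at 0.1 µg/mL for 48 h. The 3 libraries labelled oeControl are given as WT and untreated. Overexpression and doxycycline therefore cannot be told apart in this design, and doxycycline is itself known to inhibit the activity of matrix metalloproteases, which RNA counts do not measure. The labels say neither which cells or clones carry a construct nor whether replicates were separate cultures, so the p-values speak of the spread among these 6 libraries, which may be technical.

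Metalloproteases of these families hold a zinc ion in the catalytic site and are made as inactive proenzymes. MMPs cut collagens, gelatin, laminins and other matrix proteins, and most are secreted, while the membrane-type MMPs stay on the cell surface. ADAMs are membrane proteins, several of which release growth factors, cytokines and receptors from the surface by shedding, and ADAMTS enzymes are secreted proteases that cut proteoglycans, procollagens and a few single substrates. TIMPs bind the active site of MMPs and of some ADAM and ADAMTS enzymes and block it. Of the ADAM members, 8 lack the catalytic motif. In colorectal tumours, MMP7 is known as a product of the carcinoma cells themselves, whereas many other MMPs come mainly from stromal and inflammatory cells.

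Library totals lay between 18154839 and 18406885 counts, so that 1 CPM, the count scaled by library size, stood for about 18 counts. TNFRSF12A, the gene that the label names, was at 21.96 ± 1.60 CPM in oeControl and 65.9 ± 4.29 CPM in oeTNFRSF12A (mean ± SD, n = 3 per group), a log2 fold change of 1.59 (SE 0.06, adjusted p = 4.17e-16 in edgeR's quasi-likelihood test). The labelled colon epithelial origin was checked against 13 markers, of which 3 (KRT8, KRT18 and CDH1) reached 1 CPM in all libraries. Between the groups CDH1 fell from 17.0 ± 1.14 to 9.0 ± 0.42 CPM (log2 fold change -0.92, edgeR adjusted p = 3.06e-09), KRT8 was called lower (-0.08, edgeR adjusted p = 0.0444) and KRT18 was not called (0.06). The part of these differences in the members' values was not tested. CDX1 and CEACAM5 had 0 counts over the 6 libraries together, GPA33 had 1, CDH17 had 2, CDX2 had 4, VIL1 had 5 and EPCAM had 13. In these libraries the defining colon markers were therefore absent or near 0, and values below are those of cells labelled DLD-1. Of 9 fibroblast markers, COL1A1, COL1A2, COL3A1 and FAP reached 1 CPM in all libraries, and DCN and LUM had 0 counts. Of 6 endothelial markers 0 reached 1 CPM in all libraries, VWF and TEK had 0 counts, and their summed level was 1.27 to 1.77 CPM in controls and 0.700 to 1.09 CPM in oeTNFRSF12A libraries, PECAM1 being called lower (-0.89).

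Of the 65 members, 37 had enough counts to be tested, 15 had a few counts and 13 had 0 counts in all libraries. In the oeTNFRSF12A libraries 6 of the tested members were higher and 12 were lower at an adjusted p under 0.05, and 19 did not pass. That is 48.6% of the tested members, beside 42.3% of all 12758 tested genes. By direction, 21.2% of all tested genes were called higher and 21.1% lower. Changes of at least 1.5-fold among called genes were found for 8 of the 37 members (21.6%), beside 5.7% of all tested genes. Of these 8 members 3 were higher and 5 lower, where the shares over all tested genes were 1.44% higher and 4.26% lower. Of the 3 that were higher, MMP9 and MMP19 passed the filter on low counts only through the oeTNFRSF12A libraries, so nothing is read from the upward share. Both are also counted in the 48.6% and 21.6% above and in the 56.8% below. MMP17, which passed the filter only through the oeControl libraries, is in the 56.8% too. Nothing is therefore read from these shares either. For 21 members (56.8%) the 2 groups had separate CPM ranges, beside 51.3% of all tested genes. The median log2 fold change of the tested members was -0.06, and that of all tested genes was 0.00. These counts leave out the 28 members with few or no counts.

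**Figure D1:**
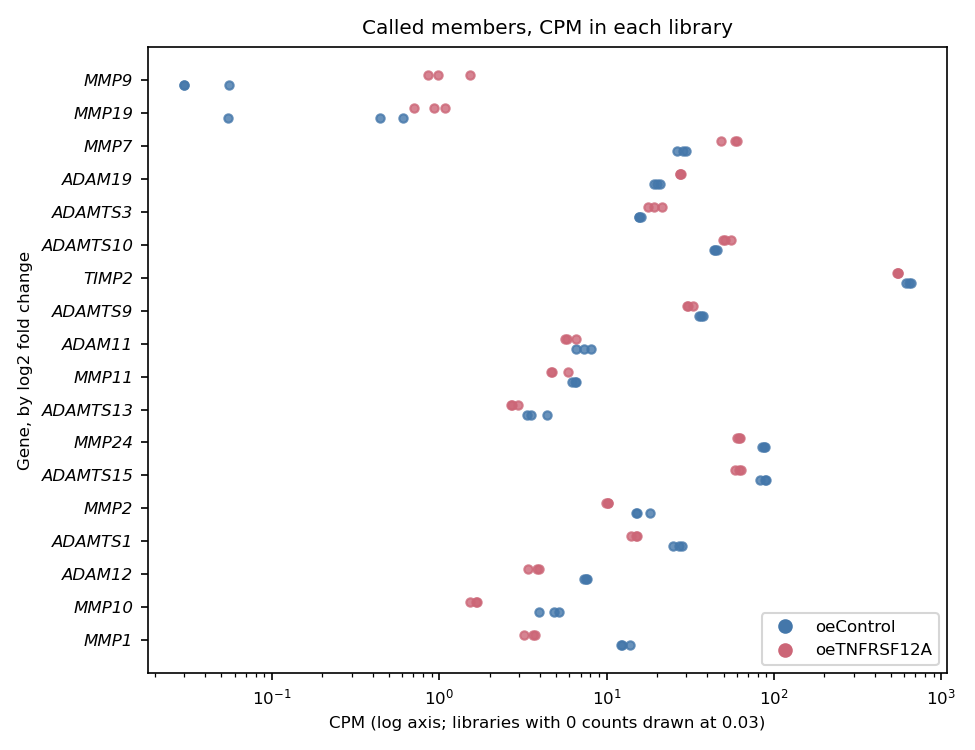
CPM of the 18 called members in each of the 6 libraries, on a log axis, with oeControl in blue and oeTNFRSF12A in red; genes are ordered by log2 fold change and a library with 0 counts is drawn at 0.03. The groups of ADAM11 overlap, and those of the other 17 do not.

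The promoters of MMP7 and MMP10 are shown because these genes lie in the same chromosome 11 cluster and moved in opposite directions. Each runs from 250 bases before to 50 bases after the annotated start of the gene, on the minus strand, and comes from RefSeq on GRCh38.p14. MMP7 is at chr11:102530698-102530997 and MMP10 at chr11:102780579-102780878. Capitals mark the AP-1 motif TGAGTCA and the LEF/TCF core CTTTGAA, both searched on both strands.
MMP7 promoter: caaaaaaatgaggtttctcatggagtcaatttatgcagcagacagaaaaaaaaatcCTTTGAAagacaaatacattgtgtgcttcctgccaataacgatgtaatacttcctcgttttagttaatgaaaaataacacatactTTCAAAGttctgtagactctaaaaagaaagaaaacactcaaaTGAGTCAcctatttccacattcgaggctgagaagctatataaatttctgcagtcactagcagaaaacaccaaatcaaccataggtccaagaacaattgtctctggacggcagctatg
MMP10 promoter: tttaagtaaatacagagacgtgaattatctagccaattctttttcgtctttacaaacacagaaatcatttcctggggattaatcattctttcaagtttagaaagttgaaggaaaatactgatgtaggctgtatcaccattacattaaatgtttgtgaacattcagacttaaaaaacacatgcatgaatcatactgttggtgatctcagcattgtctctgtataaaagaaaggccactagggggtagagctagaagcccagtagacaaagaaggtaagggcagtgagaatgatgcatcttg

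The MMP7 window held 1 AP-1 motif, with its first base 67 bases before the start, and 2 LEF/TCF cores in opposite orientations, 194 and 109 bases before it. Neither motif was found in the MMP10 window. Only these exact letters were searched, so near variants such as TGAATCA, which the MMP10 window holds, were not counted. Windows were at hand for 38 members, which do not include MMP1, MMP9 or MMP2, so these were not searched. MMP7 was the 1 among them with the AP-1 motif, which 4.95% of the 35116 windows in the table held, and MMP7 and MMP21 had the LEF/TCF core, which 4.43% held. The kappaB consensus, the binding letters of NF-kB, was in 0 of the members' windows and in 5.91% of all windows. The motifs do not overlap each other here, and a match in letters, or the lack of one, says nothing about binding.

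Of 13 tested MMP genes 3 rose and 5 fell, and secreted MMPs moved in both directions. The calls are 61.5% of those tested, beside 42.3% of all tested genes. They include MMP9 and MMP19, so nothing is read from that share. MMP7 (matrilysin), a small secreted enzyme of epithelia without the hemopexin domain of most MMPs, had 475, 542 and 523 counts in the oeControl libraries and 1077, 1097 and 894 in the oeTNFRSF12A libraries. All 3 oeTNFRSF12A libraries stood above all controls, replicate 3 being the lowest of them. MMP7 rose from 28.4 ± 1.85 to 55.6 ± 6.44 CPM, with a log2 fold change of 0.97 (SE 0.08, edgeR adjusted p = 2.93e-07). Per exon length it was the most abundant of the 3 MMPs that rose.

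MMP1, the interstitial collagenase that cuts fibrillar collagens, had 224, 251 and 223 counts in the controls and 67, 59 and 69 counts in the oeTNFRSF12A libraries. The groups were far apart and each was narrow. MMP1 fell from 12.9 ± 0.89 to 3.53 ± 0.27 CPM, a log2 fold change of -1.86 (SE 0.11, edgeR adjusted p = 8.93e-13), or 3.64-fold lower. The other collagenases were close to 0, with 1 count of MMP8 and 5 counts of MMP13 over all libraries.

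MMP10, the stromelysin-2 that cuts proteoglycans and activates other proMMPs, had 87, 94 and 72 counts in the controls and 31, 28 and 31 in the oeTNFRSF12A libraries. It fell from 4.66 ± 0.63 to 1.63 ± 0.09 CPM (log2 fold change -1.51, SE 0.17, edgeR adjusted p = 9.84e-08). MMP3, stromelysin-1, had 4 counts over all libraries. MMP11, stromelysin-3, which is activated inside the cell by furin, had 119, 113 and 118 counts against 86, 86 and 109. Replicate 3 of the oeTNFRSF12A libraries lay close to the controls. The log2 fold change was -0.34 (SE 0.12, edgeR adjusted p = 0.0241), and the call was lost in DESeq2 (-0.34) and in 4 fits with a library left out: oeTNFRSF12A replicate 1 (-0.29) or 2 (-0.29), and oeControl replicate 1 (-0.32) or 3 (-0.34). Exons of MMP11 share 218 bp with CHCHD10 on the opposite strand, which was also lower (-0.63), and the sources used here do not say whether reads were counted by strand.

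The 2 gelatinases, which cut denatured collagen and type IV collagen of basement membranes, went opposite ways. MMP2 had 269, 328 and 276 counts in the controls and 188, 186 and 185 in the oeTNFRSF12A libraries. Its groups did not overlap, and the oeTNFRSF12A libraries differed by only 3 counts. MMP2 fell from 16.1 ± 1.79 to 10.1 ± 0.15 CPM (log2 fold change -0.67, SE 0.09, edgeR adjusted p = 1.19e-06).

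MMP9 had 0, 1 and 0 counts in the controls and 18, 28 and 16 in the oeTNFRSF12A libraries. It passed the filter on low counts through the oeTNFRSF12A libraries alone. The fitted log2 fold change, 5.48 (SE 0.67), rests on that 1 control count and was 7.37 without oeControl replicate 2, which holds it. The ratio of summed counts, 62 against 1 and scaled by library size, was 60.9, with an exact 95% counting interval of 10.5 to 2445. The transcript nevertheless remained scarce, at 1.12 ± 0.35 CPM, and 430 bp of its exons (18.4%) lie opposite the antisense gene SLC12A5-AS1. MMP9 is also made by leukocytes: of 8 leukocyte markers MPO and CD3E had 0 counts, and LYZ had 1 over all libraries. PTPRC, the pan-leukocyte marker CD45, was at 0.351 ± 0.17 CPM in controls and 0.199 ± 0.03 CPM in oeTNFRSF12A libraries, and CSF1R at 0.092 ± 0.08 and 0.054 ± 0.05 CPM. The summed level of the 8 markers was 7.60 to 9.18 CPM in controls and 9.61 to 12.2 CPM in oeTNFRSF12A libraries, and the call among them was ITGAM, which went from 0.848 ± 0.12 to 2.98 ± 0.64 CPM (log2 fold change 1.81). CD68 (0.02) and CD14 (0.13) were not called. The part of these markers in the MMP9 difference was not tested. In bulk RNA, a change in the number of cells that make a transcript and a change in RNA per cell cannot be told apart.

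MMP19, a secreted MMP of wide tissue range, had 11, 8 and 1 counts in the controls and 17, 13 and 20 in the oeTNFRSF12A libraries. Like MMP9 it would not have passed the filter on low counts from the control libraries alone. Replicate 3 of the controls stood well below the other libraries. The log2 fold change was 1.28 (SE 0.43, edgeR adjusted p = 0.0184), and the call was lost without oeControl replicate 3 (0.77), without oeTNFRSF12A replicate 3 (1.14) and in DESeq2 (adjusted p = 0.0892). Of the exons of MMP19, 17.4% lie opposite TMEM198B. MMP21 stood at 0.11 (SE 0.32) without a call.

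**Figure D2:**
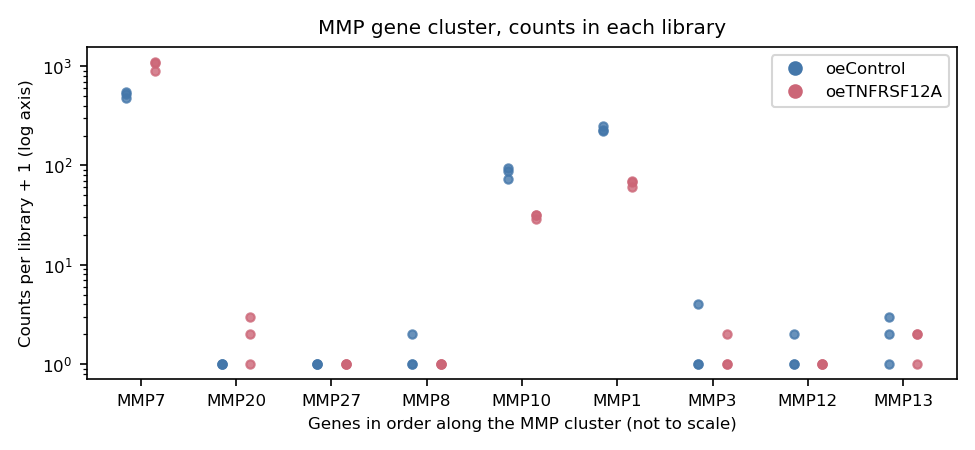
Counts plus 1 in each library for the 9 MMP genes in their order along the chromosome 11 cluster, on a log axis, with oeControl in blue and oeTNFRSF12A in red. MMP7 lies at one end and is higher in oeTNFRSF12A, MMP10 and MMP1 are lower, and the other 6 genes have at most 3 counts in a library.

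MMP7, MMP10 and MMP1 share a cluster of 9 MMP genes that spans 435 kb of chromosome 11, from 102520508 to 102955734 (GRCh38, GENCODE release 29). All 9 genes lie on the minus strand. MMP7 is the first in coordinate order, and MMP10 and MMP1 are neighbours, with MMP10 ending at 102780628 and MMP1 starting at 102789920. The plot of counts along the cluster shows that 3 of the 9 genes could be tested. MMP20, MMP27, MMP8, MMP3, MMP12 and MMP13 had 0 to 3 counts per library. Exons of MMP1 share 150 bp with the pseudogene WTAPP1 on the opposite strand.

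Of the membrane-type MMPs, MMP24 was lower and 4 others did not pass. MMP24 (MT5-MMP), known mainly from the nervous system, had 1571, 1526 and 1599 counts in the controls and 1108, 1149 and 1154 in the oeTNFRSF12A libraries. Both groups were tight and well apart. MMP24 fell from 86.5 ± 1.89 to 61.8 ± 1.13 CPM (log2 fold change -0.49, SE 0.04, edgeR adjusted p = 5.03e-10). Its exons share 799 bp (18.1%) with MMP24OS on the opposite strand, which went from 5.82 ± 0.70 to 4.22 ± 0.60 CPM (-0.46), so part of the reads may be assigned to either.

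MMP14 (MT1-MMP), the surface collagenase that activates proMMP2 together with TIMP2, had 939, 950 and 886 counts in the controls and 859, 937 and 908 in the oeTNFRSF12A libraries. The groups overlapped, and the log2 fold change was -0.06 (SE 0.05, edgeR adjusted p = 0.312). MMP15 (0.08) and MMP16 (-0.04) also did not pass, and MMP17, a GPI-anchored member with 6 to 12 counts per library, stood at -0.74 (SE 0.38, edgeR adjusted p = 0.122). MMP17 would not have passed the filter on low counts from the oeTNFRSF12A libraries alone. MMP25 had 1 to 3 counts per library.

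**Figure D3:**
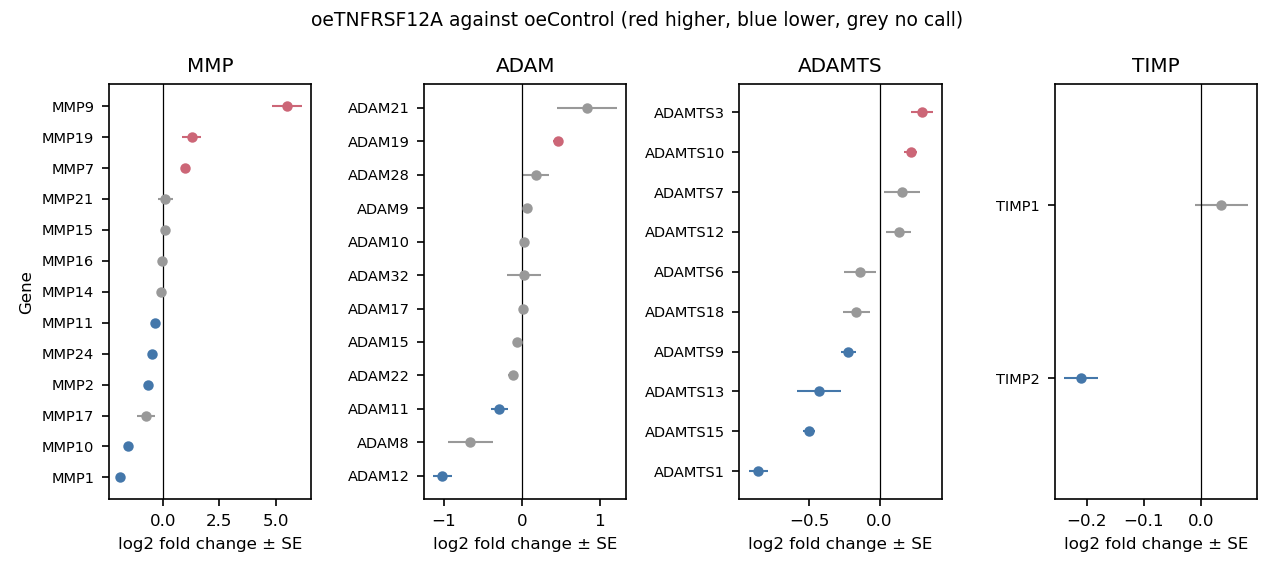
Log2 fold change of the 37 tested members with its SE, oeTNFRSF12A against oeControl, in a panel per family; red marks called higher, blue called lower and grey no call, and each panel has its own axis range. MMP values reach from -1.86 (MMP1) to 5.48 (MMP9, fitted on 1 control count), while 9 of 12 ADAM values are grey.

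Of the ADAM genes 1 rose, 2 fell and 9 of the 12 tested did not pass. The share called was 25.0%, beside the 42.3% of all tested genes. ADAM12 (meltrin alpha), a protease of muscle, placenta and tumour stroma, had 132, 137 and 139 counts in the controls and 72, 70 and 63 in the oeTNFRSF12A libraries. The control values were within 7 counts of each other. ADAM12 fell from 7.52 ± 0.17 to 3.71 ± 0.28 CPM (log2 fold change -1.02, SE 0.12, edgeR adjusted p = 1.85e-07), which is 2.02-fold lower.

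ADAM19 (meltrin beta), a sheddase of neuregulin, had 348, 378 and 362 counts in the controls and 501, 512 and 512 in the oeTNFRSF12A libraries. Every oeTNFRSF12A library was above every control. ADAM19 rose from 20.05 ± 0.81 CPM in the controls to 27.6 ± 0.28 CPM (log2 fold change 0.46, SE 0.06, edgeR adjusted p = 1.40e-06). ADAM11, which lacks the catalytic motif, had 118, 145 and 134 counts against 103, 106 and 122, and its groups overlapped. The log2 fold change was -0.29 (SE 0.11, edgeR adjusted p = 0.0443). The call was lost with library totals alone (-0.27), in DESeq2 (-0.29) and in 4 fits with a library left out: oeTNFRSF12A replicate 1 (-0.24) or 2 (-0.26), and oeControl replicate 2 (-0.22) or 3 (-0.28).

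The main sheddases stayed close to the controls. ADAM17, which releases TNF and EGF receptor ligands, had 1828, 1825 and 1730 counts in the controls and 1822, 1870 and 1867 in the oeTNFRSF12A libraries, a log2 fold change of 0.02 (SE 0.04, edgeR adjusted p = 0.680). ADAM10, which cuts Notch receptors and E-cadherin, had 6168, 6253 and 6296 counts against 6568, 6431 and 6440 (0.03, SE 0.03, edgeR adjusted p = 0.440). In CPM the groups of ADAM17 overlapped and those of ADAM10 were separated by a narrow margin. ADAM15 (-0.06), ADAM22 (-0.12), ADAM28 (0.18) and ADAM32 (0.02) did not pass either.

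ADAM9, a widely expressed sheddase, had 22682, 23001 and 22732 counts in the controls and 25150, 23880 and 23890 in the oeTNFRSF12A libraries. The groups did not overlap, but the log2 fold change was 0.07 (SE 0.03, edgeR adjusted p = 0.0752), and a call appeared with library totals alone (0.09) and without oeTNFRSF12A replicate 3 (0.09). ADAM8, a leukocyte and tumour sheddase with 12 to 32 counts per library, stood at -0.66 (SE 0.29), and a call appeared without oeControl replicate 2 (-0.84) or oeTNFRSF12A replicate 3 (-0.86). ADAM21, at 4 to 18 counts, stood at 0.84 (SE 0.38), with a call without oeControl replicate 1 (1.37). Like MMP19, ADAM21 would not have passed the filter on low counts from the control libraries alone. These 3 genes were not called over all 6 libraries.

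Among ADAMTS genes 2 rose and 4 fell, and 4 of the 10 tested did not pass; the calls are 60.0% of those tested, beside the 42.3% of all tested genes. The 3 tested proteoglycanases were all called lower, as were 21.1% of all tested genes. ADAMTS1, which cuts aggrecan and versican, had 487, 452 and 514 counts in the controls and 278, 276 and 258 in the oeTNFRSF12A libraries. Its groups were well separated. ADAMTS1 fell from 26.8 ± 1.66 to 14.7 ± 0.70 CPM (log2 fold change -0.86, SE 0.07, edgeR adjusted p = 3.79e-10).

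ADAMTS15, also a versican-cutting enzyme, had 1607, 1609 and 1500 counts in the controls and 1126, 1174 and 1082 in the oeTNFRSF12A libraries, and dropped from 86.9 ± 3.74 CPM in the controls to 61.2 ± 2.84 CPM (log2 fold change -0.50, SE 0.04, edgeR adjusted p = 1.68e-09). ADAMTS9 had 680, 664 and 646 counts against 557, 566 and 611 (-0.22, SE 0.05, edgeR adjusted p = 0.00164). The fall was smallest in ADAMTS9, although its groups did not overlap. Of the other proteoglycanases, ADAMTS4 had 2 to 10 counts per library with a ratio of summed counts of 0.828 (95% counting interval 0.398 to 1.70), ADAMTS8 had 1 to 6 counts, ADAMTS20 had 3 counts over all libraries and ADAMTS5 had 0.

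ADAMTS3, which removes the amino-terminal propeptide of procollagen and activates VEGFC, had 291, 284 and 285 counts in the controls and 395, 326 and 358 in the oeTNFRSF12A libraries. The controls were tight and all oeTNFRSF12A libraries lay above them. ADAMTS3 rose from 15.8 ± 0.26 CPM in the controls to 19.5 ± 1.91 CPM (log2 fold change 0.30, SE 0.08, edgeR adjusted p = 0.00243), while the other procollagen proteases ADAMTS2 and ADAMTS14 had 0 counts. ADAMTS10, a protease bound to fibrillin microfibrils, had 820, 797 and 810 counts against 911, 1018 and 950 (0.22, SE 0.05, edgeR adjusted p = 7.84e-04).

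ADAMTS13, the protease that cuts von Willebrand factor, had 60, 64 and 80 counts in the controls and 50, 54 and 50 in the oeTNFRSF12A libraries. Its log2 fold change was -0.43 (SE 0.16, edgeR adjusted p = 0.0296), and the call was lost without oeControl replicate 3 (-0.30), without oeTNFRSF12A replicate 1 (-0.41) or 3 (-0.41), and in DESeq2 (-0.43). ADAMTS7 (0.16) and ADAMTS12 (0.14), which cut cartilage oligomeric matrix protein, and ADAMTS6 (-0.14) and ADAMTS18 (-0.17) did not pass.

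Of the inhibitors, TIMP2 fell by a small amount and TIMP1 did not pass, and TIMP3 and TIMP4 had 0 counts in all 6 libraries. TIMP2, which blocks MMPs and also takes part in the activation of proMMP2, had 11511, 11853 and 11109 counts in the controls and 9980, 10151 and 10206 in the oeTNFRSF12A libraries. The lowest control was above the highest oeTNFRSF12A library. TIMP2 fell from 635 ± 22.1 to 549 ± 4.26 CPM (log2 fold change -0.21, SE 0.03, edgeR adjusted p = 4.52e-06), 1.16-fold lower. TIMP1, the inducible inhibitor, had 1122, 1100 and 1148 counts against 1119, 1135 and 1261, with a log2 fold change of 0.04 (SE 0.05, edgeR adjusted p = 0.565).

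The members not yet described were at or near 0. ADAM20 had 7 counts in the controls together and 4 in the oeTNFRSF12A libraries, a ratio of 0.562 with an exact 95% counting interval of 0.121 to 2.21. ADAM33 had 3 counts over the 6 libraries, as did ADAMTS17, while ADAM23 and ADAMTS19 had 2 each and MMP28 had 1. MMP26, ADAM2, ADAM7, ADAM18, ADAM29, ADAM30 and ADAMTS16 had 0 counts. A count of 0 over all 6 libraries allows a level of up to 0.0274 CPM, which covers counting error only.

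**Figure D4:**
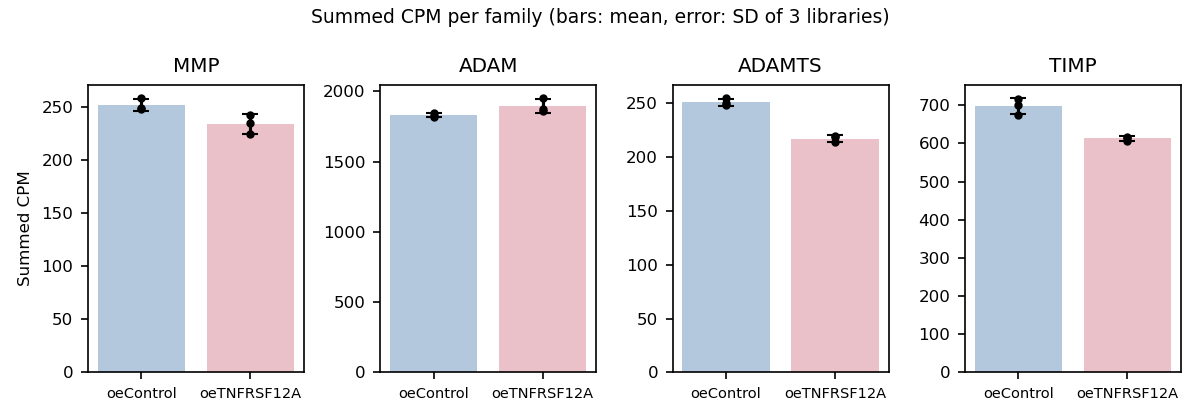
Summed CPM of all members of each family, with bars at the mean of 3 libraries, error bars for the SD and points for the libraries; each panel has its own axis from 0. The oeTNFRSF12A bars are below those of oeControl in the ADAMTS panel (217 against 251 CPM) and the TIMP panel (613 against 697 CPM).

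Summed over each family, a few genes carried most of the counts. The MMP sum was 252 ± 5.54 CPM in controls and 234 ± 9.34 CPM in oeTNFRSF12A libraries, a ratio of 0.929, with MMP24 giving 34.3% of it in the controls. The ADAM sum was 1828 ± 14.0 and 1895 ± 48.8 CPM (ratio 1.04), of which ADAM9 gave 69.0%. For the ADAMTS family the sums were 251 ± 3.39 and 217 ± 3.00 CPM (ratio 0.866). The TIMP sum was 697 ± 21.0 and 613 ± 6.30 CPM (ratio 0.879), TIMP2 giving 91.1% of it in the controls. No test was made on these sums.

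Levels were also scaled per kilobase of annotated exon, merged over all transcripts of a gene, which gives 16168 bp for ADAM10 and 1541 bp for TIMP1. The length of the transcripts expressed here is not known, so the order below holds for this scale only. On it the control level was highest for ADAM9 (182 ± 1.52 CPM per kb), followed by TIMP2 (113 ± 3.93) and TIMP1 (40.3 ± 0.77). ADAM10 (21.3 ± 0.15 CPM per kb) and MMP24 (19.6 ± 0.43) came next, then ADAMTS15 (15.3 ± 0.66), MMP7 (12.2 ± 0.80) and MMP14 (11.5 ± 0.46). The last 2 were within their spread of each other. In the oeTNFRSF12A libraries MMP7 reached 23.9 ± 2.77 CPM per kb and was then above MMP24 (14.0 ± 0.26) and ADAM10 (21.8 ± 0.36), the latter by less than the spread of MMP7. Without scaling by length MMP7 (55.6 CPM) was below both in these libraries, with MMP24 at 61.8 and ADAM10 at 352 CPM. MMP1 was at 6.53 ± 0.45 CPM per kb in controls and 1.79 ± 0.14 in oeTNFRSF12A libraries, and MMP9 at 0.481 ± 0.15 in the latter.

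The values of the fibroblast markers are given here beside those of the members. The summed level of the 9 fibroblast markers was 1558 to 1668 CPM in controls and 1119 to 1166 CPM in oeTNFRSF12A libraries. Most of this sum was COL1A1, with means of 599 and 333 CPM, and COL1A2, with 958 and 753 CPM. The sum therefore does not speak for the other markers. COL1A1 (log2 fold change -0.85) and COL1A2 (-0.35) fell, COL3A1 (0.23) and FAP (0.47) rose, and PDGFRA was not called. The part of these differences in the members' values was not tested.

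Genes that activate, restrain or are cut by these enzymes were followed in 5 lists of 62 genes, of which 49 could be tested, 11 rose and 21 fell. These 32 calls are 65.3% of those tested, beside the 42.3% of all tested genes. The median log2 fold change of the 49 tested genes was -0.13. The lists were chosen with earlier results of these data known, so nothing is read from the difference between these shares. The list of zymogen activators also holds BSG, an MMP inducer, and PLAUR, the urokinase receptor. Of its 7 tested genes 2 rose and 1, BSG, fell (42.9% called), with a list median of 0.13. PLAU, the urokinase that makes plasmin, an activator of proMMPs, rose from 203 ± 9.34 to 264 ± 11.9 CPM (log2 fold change 0.38, edgeR adjusted p = 1.99e-08). BSG, the surface protein that induces MMPs in neighbouring cells, fell by 0.13 on the log2 scale. PCSK7, a proprotein convertase, changed by 0.15 with an edgeR adjusted p of 0.0295, and its call was lost in DESeq2 (0.15) and in 4 fits with a library left out: oeTNFRSF12A replicate 1 (0.14) or 2 (0.13), and oeControl replicate 2 (0.16) or 3 (0.13). FURIN, the activator of MMP11, the membrane-type MMPs and the ADAMs, was not called (-0.06).

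The list of inhibitors and clearance factors outside the TIMP family had 1 higher and 6 lower of 8 tested, with a list median of -0.42. These calls are 87.5% of those tested, beside 42.3% of all tested genes. The list was chosen with earlier results known, and nothing is read from that difference. The 6 lower genes include PCOLCE, which enhances a procollagen protease and is neither an inhibitor nor a clearance factor. PCOLCE was called lower (-0.56, edgeR adjusted p = 0.0314), but its groups overlapped. LRP1, the endocytic receptor that removes MMPs and ADAMTS enzymes from the cell surface, fell from 191 ± 7.58 to 104 ± 4.72 CPM with no overlap of the groups (log2 fold change -0.88, SE 0.04, edgeR adjusted p = 4.16e-15). THBS2, a thrombospondin that carries MMP2 to LRP1, fell from 670 ± 3.81 to 430 ± 3.89 CPM (-0.64). TFPI2, a Kunitz inhibitor of plasmin, rose from 27.3 ± 1.42 to 41.5 ± 2.66 CPM (0.61). RECK, a membrane-anchored inhibitor of MMPs, was not called (-0.08).

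The partners that carry ADAM10 and ADAM17 to the surface had 3 higher and 3 lower of 9 tested, all by less than 1.5-fold, with a list median of -0.08. These calls are 66.7% of those tested, beside 42.3% of all tested genes. This list and that of the shed substrates were chosen with earlier results known. Nothing is read from their shares. The ADAM10-binding tetraspanins TSPAN14 (log2 fold change -0.23) and TSPAN33 (-0.44) fell, and TSPAN15 rose (0.30, largest edgeR adjusted p of the 3, 1.12e-04). The other calls of the list were RHBDF2 (0.24) and RHBDF1 (0.39), both higher, and TSPAN5 (-0.16), lower. Of 16 tested shed substrates 2 rose and 9 fell (68.75% called, beside the same 42.3%), with a list median of -0.24. HBEGF, an EGF receptor ligand released by ADAM17, rose from 19.4 ± 0.45 to 37.1 ± 2.48 CPM (0.94), and NRG1, which ADAM19 can cut, from 137 ± 1.12 to 199 ± 2.23 CPM (0.54). CD44, the hyaluronan receptor, fell from 1569 ± 37.5 to 1247 ± 18.9 CPM (-0.33). HBEGF, NRG1 and CD44 each had an edgeR adjusted p of at most 1.61e-09. The other EGF receptor ligands of the list did not rise: EREG (-0.43) and TGFA (-0.42) were called lower, and AREG (-0.22) and BTC (-0.21) were not called.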

How the data were processed

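RNA was prepared with TRIzol and selected with oligo(dT) beads, per the labels' protocols. RSEM 1.3.1, Bowtie2 2.4.5 and HISAT2 2.2.1 and the builds GRCh38 and hg38 appear in the submitters' processing notes without their roles, and no source used here states the annotation or strand setting. Each deposited value was read as an expected count per gene symbol, estimated by the authors; all were whole. One row naming no gene held 0 counts and was left out.

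The analysis used R 4.3.3 and edgeR 4.0.16. Genes passed filterByExpr (minimum count 10) with TMM scaling (factors 0.988 to 1.01). The test was a robust quasi-likelihood fit on group alone, Benjamini-Hochberg adjusted over all 12758 genes, called under 0.05. SE is the log2 fold change divided by the root of F. Ratios of summed counts carry exact (Clopper-Pearson) 95% intervals. These cover counting error only, and PCR copies are not independent molecules. The fit was tested on simulated data. Members and lists were chosen with earlier results of these data known. Named genes are called members, members reaching 1 CPM and the 3 lowest p per pathway list; other named list genes were chosen after their values were seen. One leukocyte marker is not reported here. Exon lengths and overlaps come from GENCODE release 29. Chi-square per gene was 1.61 to 3.35 within groups, so no pair of libraries agreed within sampling noise. Alternatives were other scalings, other filters, DESeq2 1.42.0, a replicate block and each library left out.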

Additional observations from a re-analysis of the deposited data

How the results depend on the processing

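Over 13 alternative fits, 14 of the 18 called members kept their direction and call in every fit that could test them, and 0 of the 18 changed sign. The 4 that lost a call somewhere were MMP19, MMP11, ADAMTS13 and ADAM11, whose values stand with the genes. Counts of members ranged from 4 to 7 higher and from 9 to 12 lower: leaving out each library gave 5 to 7 higher and 9 to 12 lower, the filter at a mean of 50 counts, which drops MMP9 and MMP19, gave 4 and 12, and DESeq2 gave 5 and 9. Over all genes, 5402 calls became 3767 in DESeq2 and 4506 to 5298 with a library left out; listed pathway calls ranged from 27 to 33. Same-numbered libraries of the groups did not deviate together (correlations -0.019, 0.017 and 0.035). With 3 libraries per group this cannot show whether they were paired, and the labels do not say. A replicate block gave 6 higher and 12 lower members and 5396 genes. The sign of the log2 fold change reversed for 5 uncalled members with a library left out, over ranges of -0.014 to 0.064 for TIMP1, -0.0076 to 0.037 for ADAM17, -0.087 to 0.032 for MMP16, -0.14 to 0.29 for MMP21 and -0.072 to 0.15 for ADAM32. The cause was not tested. Depth limits the 15 members with at most 10 counts in every library.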

Other observations

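Of 17 genes for other zinc proteases and ADAMTS-like proteins 9 could be tested, of which 3 rose, 2 fell and 4 did not pass. Their median log2 fold change was -0.05. The calls are 55.6% of those tested, beside 42.3% of all tested genes. This list too was chosen with earlier results known, and nothing is read from that difference. PAPPA, the metalloprotease that releases insulin-like growth factors by cutting their binding proteins, rose from 8.34 ± 0.99 to 14.0 ± 1.02 CPM (0.74, edgeR adjusted p = 9.01e-07). BMP1, the procollagen C-proteinase that also activates lysyl oxidase, rose from 95.6 ± 2.43 to 116 ± 7.17 CPM (0.28, edgeR adjusted p = 6.58e-06). ADAMTSL4, an ADAMTS-like matrix protein without protease activity, fell from 6.69 ± 0.32 to 3.28 ± 0.36 CPM (-1.03, edgeR adjusted p = 5.30e-07).

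The 2 shed substrates too scarce to be tested, TNFRSF1B and TNF, are named after their values were seen. TNFRSF1B, a TNF receptor cut by ADAM17, had 2, 1 and 0 counts in the oeControl libraries and 12, 8 and 11 in the oeTNFRSF12A libraries. The ratio of summed counts was 10.2, with an exact 95% counting interval of 3.17 to 51.9. TNF, the cytokine that gave ADAM17 its older name, had 4, 5 and 4 counts against 0, 2 and 2, a ratio of 0.302 with an interval of 0.0718 to 0.979.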
